A study of Homo sapiens with 4 samples.

Results

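The genes of cholesterol and fatty acid synthesis were examined in HK-2, an immortalised epithelial line from the proximal tubule of human kidney, after exposure to TGF-β1 (transforming growth factor β1, a cytokine that drives matrix production in tubular cells) or none. The set was a fixed list of 34 genes named for their function, and all 34 were found among the 25609 genes of the deposited expression table. It comprised 17 enzymes of sterol synthesis, 4 genes of sterol sensing, 4 of sterol transport and efflux, and 9 of fatty acid synthesis and desaturation. All samples were wild-type HK-2 cells deprived of serum for 24 h. The treated group (TGFbeta1, 2 samples) then had TGF-β1 at 20 ng/mL for 24 h, and the control group (2 samples) is assumed to differ only in lacking it, because the labels give 1 protocol for all samples. 4-thiouridine (4SU), a uridine analogue taken up into new RNA, was present at 100 μM for the last 20 h in that protocol, so the controls carry it too. Total RNA was sequenced, and levels were deposited in RPKM, which divides reads by exon length in kilobases and by library size.

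Cells make cholesterol from acetyl-CoA through mevalonate, farnesyl pyrophosphate, squalene and lanosterol, and they make fatty acids from the same acetyl-CoA through malonyl-CoA. Transcription of both arms is driven by the sterol regulatory element-binding proteins (SREBPs), which SCAP escorts out of the endoplasmic reticulum when membrane sterol is low and which INSIG proteins hold back when it is high. Cholesterol in excess activates the LXR receptors, which raise the efflux transporters ABCA1 and ABCG1. Proximal tubule cells normally burn fatty acids for energy, and lipid handling in them is a topic of kidney disease research.

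Whole read counts could be recovered from the RPKM values and summed to between 3336692 and 5451702 per library, the lowest being control replicate 1. The tested members rested on 8 to 10282 reads per library. The labels do not say whether replicates were separate cultures, so p-values here reflect library-to-library spread that may be technical only. The authors' scaling placed the TGF-β1 libraries higher than scaling by the recovered totals would, and the latter moves the median log2 fold change over tested genes from 0.03 to -0.13, a shift of -0.15. Of 10 renal epithelial markers 9 were in the table and 6 passed the expression filter. PAX8, KRT8, KRT18 and KRT19 lay between 14.7 and 183 RPKM, while the proximal tubule markers CUBN, AQP1 and ANPEP lay between 0.024 and 0.385 RPKM, near 0 in all 4 libraries, and GGT1, a brush border enzyme, measured 19.6 and 20.4 RPKM in the controls and 18.9 and 16.8 RPKM with TGF-β1. The summed level of the 9 epithelial markers was 328 to 341 RPKM in the controls and 388 to 427 RPKM with TGF-β1; KRT8, KRT18 and CDH2 rose and PAX8 and KRT19 fell, and the part of this in the results below was not tested. Markers of other cell types were near 0 apart from LUM among fibroblast genes (12.1 and 12.9 RPKM in the controls, 8.76 and 6.74 RPKM with TGF-β1) and SERPINC1 (1.14 to 2.34 RPKM) among hepatocyte genes. The only adipocyte marker in the table, PLIN1, lay between 0.028 and 0.308 RPKM. In bulk RNA, fewer cells of a type and less RNA per cell cannot be told apart.

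The comparison of TGF-β1 with control asks which of these genes respond to the cytokine. With TGF-β1, 9 members rose: the sterol enzymes MVD, FDFT1 and NSDHL, the SREBP regulator INSIG1, the sterol carriers STARD4 and ABCA1, and the fatty acid genes ACLY, FASN and SCD. These were 9 of the 32 members tested (28.1%), where 6.12% of all 16590 tested genes rose and 9.12% changed in either direction. No member was lower at an adjusted p below 0.05 by limma, as 498 of all tested genes were, and 1 member (NPC1) was lower at an unadjusted p below 0.05. By limma-voom on the recovered reads, 10 members were called higher and 4 lower (PMVK, NPC1, HSD17B7 and ACSS2), against 7.18% and 16.9% of all genes. Members were more highly expressed than most genes, with a median control level of 7.66 RPKM against 3.23 RPKM over all tested genes. Among genes with a mean of at least 2 RPKM, 10 of 27 members rose against 11.4% of all such genes, and NPC1 was called lower. The median log2 fold change was 0.32 over the members and 0.03 over all tested genes.

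Calls depended on the settings. Scaled by total recovered reads, 6 members were called higher and 2 lower (PMVK and NPC1), against 3.95% and 5.32% of all genes, and the fatty acid genes ACLY, FASN and SCD were among the 6. No member passed limma without a variance trend, where 2.56% of all genes were called in either direction at an adjusted p below 0.05. At an unadjusted p below 0.05 in that setting, 11 members were higher and 2 lower. The matching unadjusted share of all genes in that setting is not given here. With the trend it was 25.0%, against 16 of the 32 members. All calls with 1 library left out were higher: 5 members without control replicate 1 (4.23% of all genes), 8 without control replicate 2 (5.08%), 3 when TGF-β1 replicate 1 was dropped (3.03%) and 2 when TGF-β1 replicate 2 was dropped (2.38%). ACLY and SCD were called in all 4 of these fits. The sign of each of the 9 fold changes was positive under all 15 alternative settings. Outside the scaling, quantile normalisation and limma-voom settings this was fixed in advance, because the groups did not overlap in any of the 9 genes.

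**Figure D1:**
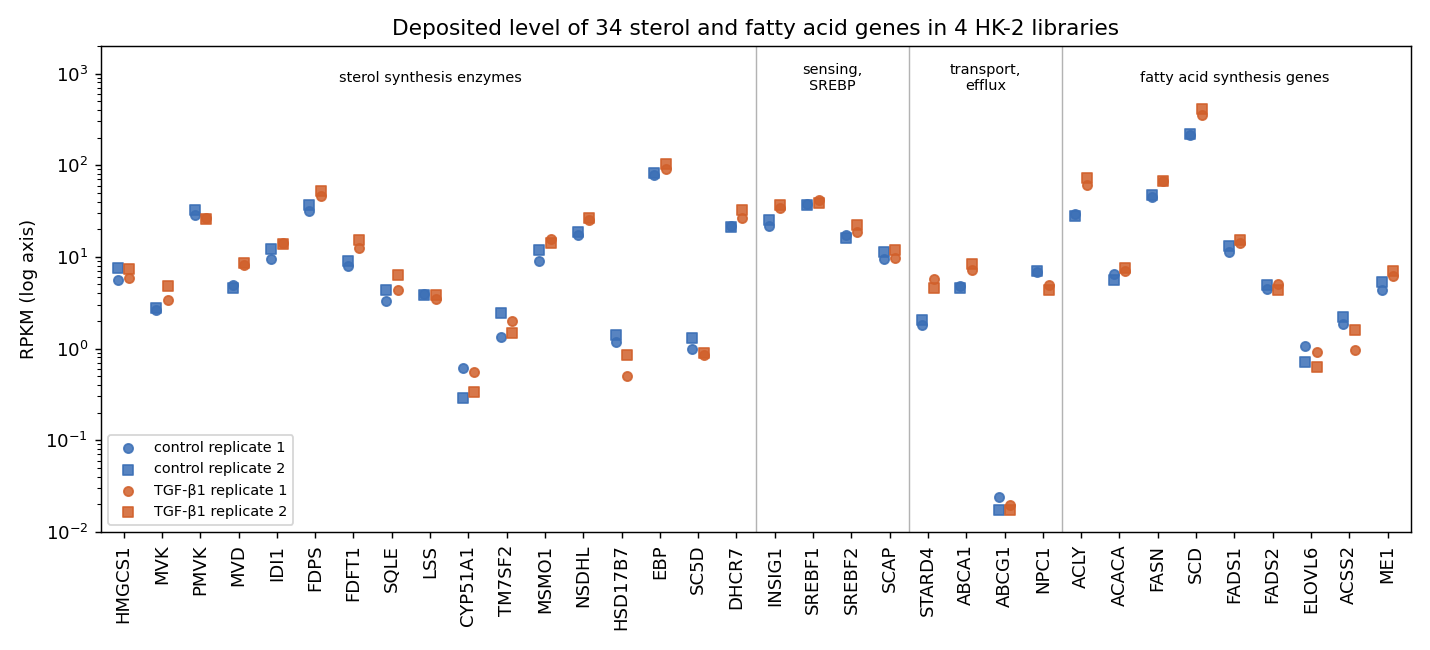
Deposited level of each of the 34 genes in RPKM on a log axis, with controls in blue and TGF-β1 in orange, replicate 1 as circles and replicate 2 as squares; vertical lines separate the 4 functional groups. SCD was the most abundant gene in all 4 libraries (211 to 407 RPKM), and ABCG1, with 0 reads, sits at the level of the 0.5 read that the deposited values contain.

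The sequences upstream of the genes that rose are shown because SREBPs are known to act at promoters of these pathways with the factor NF-Y, which binds the pentamer CCAAT. RefSeq promoter windows (GRCh38.p14) were found for 30 of the 34 members and are missing for FDFT1, SQLE, FASN and ABCG1. The 6 genes that rose with the smallest p among those with a window are given as the 250 bases before the first listed transcription start, 5′ to 3′ on the strand of the gene, followed by SREBF2. Capitals mark CCAAT on either strand (ATTGG where it lies on the other strand) and, in SREBF2, also the classical sterol regulatory element. The windows are chr17:41919023-41919272 (ACLY, minus strand), chr10:100346983-100347232 (SCD, plus strand), chr5:111512536-111512785 (STARD4, minus strand), chr16:88663092-88663341 (MVD, minus strand), chrX:152830813-152831062 (NSDHL, plus strand), chr7:155297628-155297877 (INSIG1, plus strand) and chr22:41832855-41833104 (SREBF2, plus strand).
ACLY: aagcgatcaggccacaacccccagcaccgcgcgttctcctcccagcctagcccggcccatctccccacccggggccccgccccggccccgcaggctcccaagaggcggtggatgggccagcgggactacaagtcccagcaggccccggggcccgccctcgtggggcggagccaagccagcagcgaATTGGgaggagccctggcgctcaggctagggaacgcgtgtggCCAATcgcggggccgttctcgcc
SCD: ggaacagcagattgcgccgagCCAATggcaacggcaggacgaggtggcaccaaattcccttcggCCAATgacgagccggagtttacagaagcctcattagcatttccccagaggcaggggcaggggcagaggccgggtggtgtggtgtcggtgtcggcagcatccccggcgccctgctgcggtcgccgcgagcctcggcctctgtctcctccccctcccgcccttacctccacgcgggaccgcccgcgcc
STARD4: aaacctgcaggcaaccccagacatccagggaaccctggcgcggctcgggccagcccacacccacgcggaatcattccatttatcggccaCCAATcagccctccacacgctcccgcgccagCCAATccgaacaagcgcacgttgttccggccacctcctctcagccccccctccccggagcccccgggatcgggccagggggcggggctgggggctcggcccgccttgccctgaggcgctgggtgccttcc
MVD: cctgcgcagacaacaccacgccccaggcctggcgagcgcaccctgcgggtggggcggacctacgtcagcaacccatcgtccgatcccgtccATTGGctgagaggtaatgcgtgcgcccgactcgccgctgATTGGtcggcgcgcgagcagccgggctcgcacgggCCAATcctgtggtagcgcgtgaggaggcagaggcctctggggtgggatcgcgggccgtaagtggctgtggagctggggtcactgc
NSDHL: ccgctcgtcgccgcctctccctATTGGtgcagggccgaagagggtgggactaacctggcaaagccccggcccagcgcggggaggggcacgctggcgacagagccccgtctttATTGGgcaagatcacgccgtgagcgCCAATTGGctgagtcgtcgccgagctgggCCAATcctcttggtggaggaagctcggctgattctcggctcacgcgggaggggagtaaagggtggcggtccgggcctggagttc
INSIG1: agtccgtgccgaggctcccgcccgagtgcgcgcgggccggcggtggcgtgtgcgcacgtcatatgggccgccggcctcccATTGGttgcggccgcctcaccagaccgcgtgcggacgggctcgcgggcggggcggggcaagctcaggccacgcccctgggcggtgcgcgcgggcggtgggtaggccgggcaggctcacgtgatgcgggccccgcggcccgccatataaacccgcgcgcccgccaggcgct
SREBF2: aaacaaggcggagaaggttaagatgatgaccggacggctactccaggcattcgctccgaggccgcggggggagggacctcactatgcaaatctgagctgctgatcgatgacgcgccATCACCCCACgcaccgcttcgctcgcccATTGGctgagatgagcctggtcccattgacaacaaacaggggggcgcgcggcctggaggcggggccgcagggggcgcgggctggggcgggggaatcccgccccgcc

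CCAAT was present on either strand in 18 of the 30 member windows, against 33.0% of 27305 genes with a window of the same length and 35.5% of the 10126 tested genes among them. It was found in 6 of the 7 windows of genes that rose (all but ABCA1) and in 12 of the 23 other member windows; no test of that difference was made. NSDHL and MVK each had 5 matches and MSMO1 had 4. An exact match to the 10-base sterol regulatory element was found in the window of SREBF2 alone among the 30 member windows. It lay from -134 to -125 relative to the start, and 0.0366% of all windows held such a match. Variants of the element were not searched for, apart from its core. Its shorter core CACNCCAC, which the longer element contains, was found upstream of SREBF2, INSIG1, SCD and ABCA1, and in 4.72% of all windows. The AP-1 motif TGANTCA occurred upstream of ME1 alone (6.60% of all windows) and the SMAD palindrome GTCTAGAC upstream of no member (0.176% of all windows). A match describes letters in this window, and binding was not measured here.

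**Figure D2:**
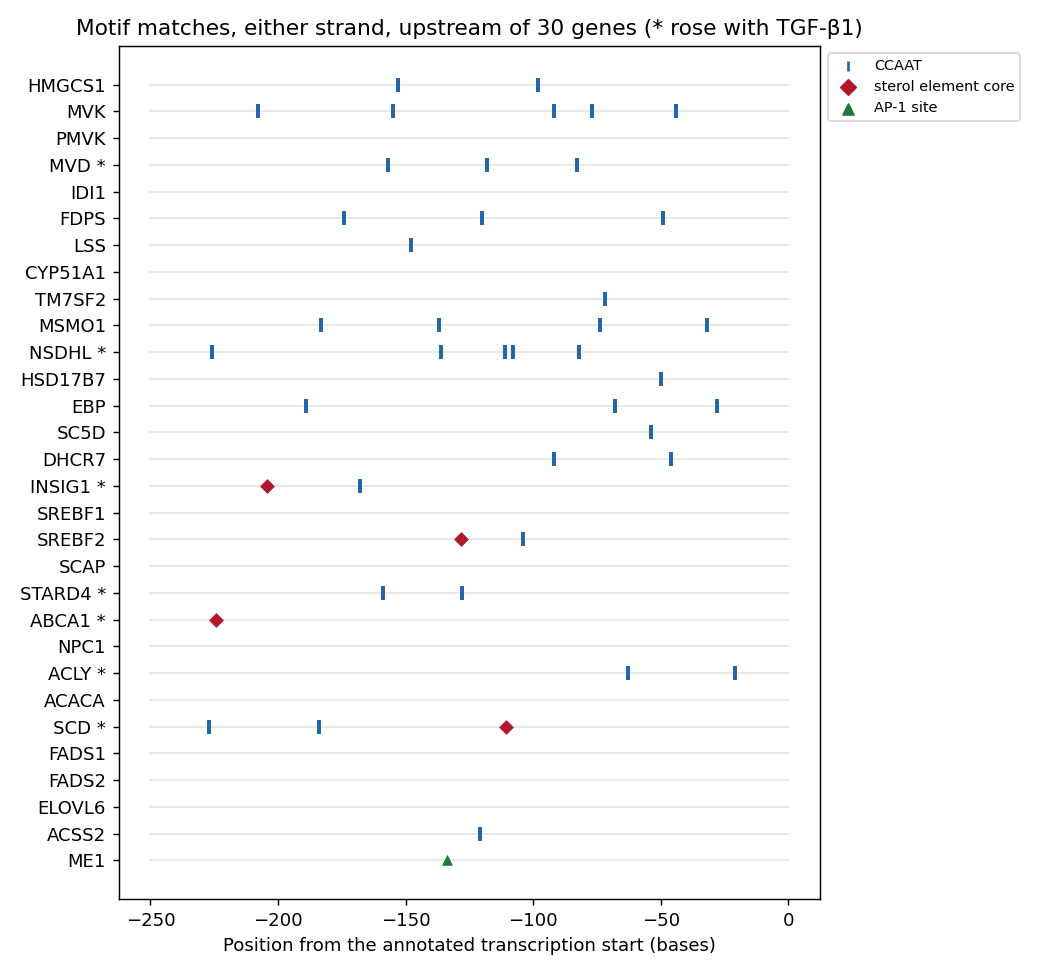
Position of matches to CCAAT (bars), the sterol element core CACNCCAC (diamonds) and the AP-1 motif TGANTCA (triangle). Windows are the 250 bases before the first listed RefSeq start of 30 members, and genes that rose are marked by an asterisk. CCAAT lies in the windows of 18 genes, often several times, as in NSDHL and MVK with 5 matches each.

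The fatty acid genes included SCD, the most abundant member, and ACLY, which with SCD was called whichever library was left out. Of the 9 fatty acid genes, all tested, 3 rose (33.3%, against 6.12% of all 16590 tested genes). None was called lower, as 498 of all tested genes were, and the median log2 fold change was 0.26. The summed level of the 9 genes was 315 and 326 RPKM in the controls and 515 and 585 RPKM with TGF-β1. They took 0.202% and 0.201% of recovered control reads against 0.283% and 0.306% of recovered TGF-β1 reads, a share that does not use the authors' scaling. Most of these sums and shares came from the 3 genes that rose, SCD above all, so they say little of the other 6 genes. The median was 0.09 when libraries were scaled by total recovered reads.

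ACLY (ENSG00000131473.16, hg38 chromosome 17, 41866908 to 41930542), the ATP citrate lyase that releases acetyl-CoA from citrate in the cytosol and so feeds both arms, measured 29.1 and 28.2 RPKM in the controls and 60.7 and 73.1 RPKM with TGF-β1. The groups were far apart, and the controls differed little from each other. It rose 2.34-fold from 28.7 ± 0.69 to 66.9 ± 8.7 RPKM (SD, n = 2 per group), a log2 fold change of 1.20 with a standard error of 0.10 (adjusted p = 0.00550, limma). It was called in 14 of 15 alternatives and missed the threshold only without the variance trend (adjusted p = 0.0515, limma). Its promoter window above holds CCAAT on each strand, but it precedes a RefSeq start and lies inside the gene span given here, away from the GENCODE 29 start.

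SCD (ENSG00000099194.5, chromosome 10, 100347124 to 100364834), the stearoyl-CoA desaturase that makes monounsaturated fatty acids, measured 211 and 218 RPKM in the controls and 353 and 407 RPKM with TGF-β1. Its groups did not overlap, and its control level was above that of 99.1% of tested genes. It rose 1.77-fold from 214 ± 4.9 to 380 ± 39 RPKM, with a log2 fold change of 0.82 and a standard error of 0.09 (adjusted p = 0.00905, limma). SCD alone took 0.115% of reads in control replicate 1 and 0.189% in TGF-β1 replicate 2. Of its 50-base words, 4.42% also occur in other transcripts, its processed pseudogene among them, so a small part of its reads is uncertain. The call was lost without the variance trend (adjusted p = 0.0716, limma).

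FASN (ENSG00000169710.8, chromosome 17, 82078333 to 82098332), the fatty acid synthase that builds palmitate, measured 45.4 and 47.6 RPKM in the controls and 67.4 and 67.7 RPKM with TGF-β1. Replicates lay close together in both groups. It rose 1.45-fold from 46.5 ± 1.6 to 67.5 ± 0.23 RPKM, with a log2 fold change of 0.53 and a standard error of 0.06 (adjusted p = 0.0113, limma). The log2 fold change was 0.35 when scaled by total recovered reads (adjusted p = 0.0247, limma). The call was lost without TGF-β1 replicate 2 (adjusted p = 0.0531, limma) and without the variance trend (adjusted p = 0.101, limma).

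The other 6 fatty acid genes did not pass the test. ACACA, the acetyl-CoA carboxylase that makes malonyl-CoA between the steps of ACLY and FASN, measured 6.52 and 5.59 RPKM in the controls and 7.08 and 7.53 RPKM with TGF-β1 (log2 0.26, 95% confidence interval -0.07 to 0.58). Its interval overlaps that of FASN (0.38 to 0.69) and lies below that of ACLY (0.94 to 1.47), although the genes were not tested against each other. ME1, the cytosolic malic enzyme that supplies NADPH, measured 4.33 and 5.33 RPKM in the controls and 6.25 and 7.09 RPKM with TGF-β1 (log2 0.43, adjusted p = 0.165, limma). FADS1 and FADS2, the desaturases of polyunsaturated fatty acids, lie beside each other on chromosome 11 and differed in their values. FADS1 measured 11.3 and 13.2 RPKM in the controls and 14.2 and 15.3 RPKM with TGF-β1 (log2 0.26, interval -0.01 to 0.54), without overlap between the groups. FADS2 measured 4.48 and 4.97 RPKM in the controls and 5.07 and 4.38 RPKM with TGF-β1, so its groups overlapped (log2 0.00, interval -0.37 to 0.37). Exons of FADS1 and FADS2 share 490 bases on opposite strands, with a strand setting not given in the sources used here.

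ACSS2 makes acetyl-CoA from acetate, the alternative to the citrate route of ACLY. It measured 1.83 and 2.23 RPKM in the controls and 0.961 and 1.60 RPKM with TGF-β1, on 33, 56, 21 and 40 reads. Both TGF-β1 libraries lay below both controls, and the difference did not pass (log2 -0.53, interval -1.21 to 0.15, adjusted p = 0.308, limma) but was called by limma-voom on recovered reads (log2 -0.88, adjusted p = 0.0123). ELOVL6, which elongates palmitate, was at the bottom of the group at 0.626 to 1.07 RPKM on 21 to 27 reads, its groups overlapped, and the interval of its log2 fold change was -0.87 to 0.60.

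**Figure D3:**
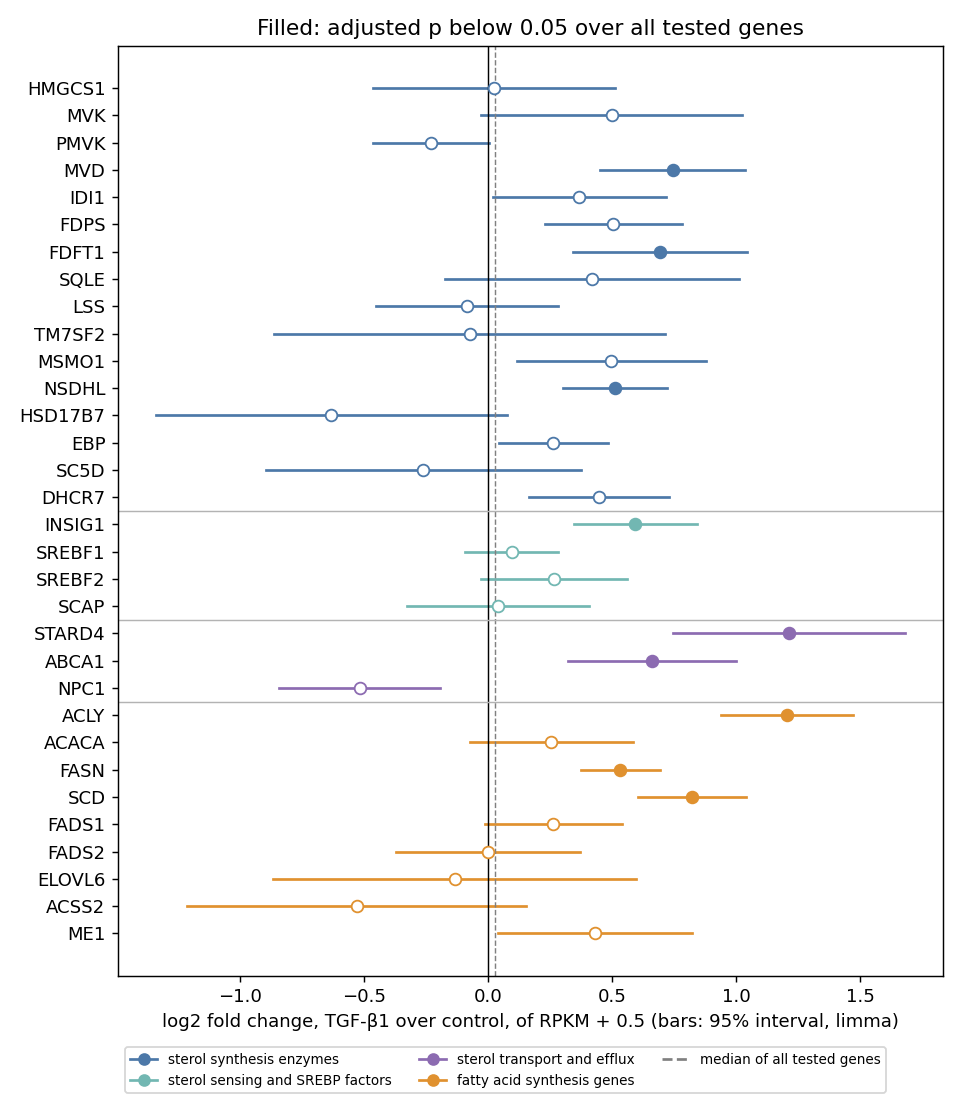
Log2 fold change of TGF-β1 over control on the log2(RPKM + 0.5) scale for the 32 tested genes, with 95% confidence intervals from limma; filled points passed at an adjusted p below 0.05 over all tested genes, and the dashed line is the median of all tested genes (0.03). The 9 filled points lie between 0.51 (NSDHL) and 1.21 (STARD4), and the open points from -0.63 (HSD17B7) to 0.51 (FDPS).

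In the sterol synthesis pathway, 3 of 16 tested enzymes rose (18.8%, against 6.12% of all tested genes). None was called lower by limma on the deposited values, and 8 of the 16 had an unadjusted p below 0.05 (25.0% of all tested genes). The median log2 fold change was 0.39, with 11 values above 0 and 5 below, and it was 0.22 when scaled by total recovered reads. The summed level of the 17 enzymes was 228 and 254 RPKM in the controls and 285 and 318 RPKM with TGF-β1. EBP, which was not called, was the largest part of it. Without the authors' scaling, the enzymes took 0.0703% and 0.0756% of recovered control reads against 0.0797% and 0.0870% of recovered TGF-β1 reads. In 9 of the 16 the TGF-β1 libraries were both above the controls (29.5% of all tested genes) and in 4 both below (24.6%). Sterol enzymes also varied within groups: 13 of 16 were higher in control replicate 2 than in control replicate 1, where 55.7% of all tested genes were, and 12 of 16 were higher in TGF-β1 replicate 2 than in TGF-β1 replicate 1, where 48.9% were.

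Among the listed enzymes, the earliest in the pathway is HMGCS1, which makes HMG-CoA. HMGCS1 measured 5.55 and 7.53 RPKM in the controls and 5.91 and 7.34 RPKM with TGF-β1. The groups overlapped entirely, and the log2 fold change was 0.02 (interval -0.46 to 0.51). MVK and PMVK, which phosphorylate mevalonate in turn, had fold changes of opposite sign. MVK measured 2.62 and 2.77 RPKM in the controls and 3.36 and 4.77 RPKM with TGF-β1 (log2 0.50, adjusted p = 0.220, limma). PMVK measured 28.5 and 32.8 RPKM in the controls and 26.2 and 25.8 RPKM with TGF-β1 (log2 -0.23, adjusted p = 0.210, limma), and it was called lower when scaled by total recovered reads (log2 -0.41, adjusted p = 0.0467, limma). MVK shares 4.72% of its exon bases with MMAB on the other strand, which measured 3.87 and 4.52 RPKM in the controls and 5.34 and 7.28 RPKM with TGF-β1, so reads in that stretch cannot be assigned to either gene if strand was ignored.

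MVD (ENSG00000167508.11, chromosome 16, 88651935 to 88663161), which decarboxylates mevalonate pyrophosphate to the isoprene unit, measured 4.97 and 4.62 RPKM in the controls and 8.24 and 8.49 RPKM with TGF-β1. The groups were well apart. It rose 1.74-fold from 4.80 ± 0.25 to 8.36 ± 0.18 RPKM, with a log2 fold change of 0.74 and a standard error of 0.11 (adjusted p = 0.0236, limma). It did not hold without control replicate 2 (adjusted p = 0.058), TGF-β1 replicate 1 (0.101) or TGF-β1 replicate 2 (0.127, limma).

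IDI1 isomerises the isoprene unit and FDPS joins such units into farnesyl pyrophosphate, the branch point to sterols and prenylated proteins. IDI1 measured 9.41 and 12.1 RPKM in the controls and 14.0 and 13.8 RPKM with TGF-β1 (log2 0.37, adjusted p = 0.179, limma). FDPS measured 31.5 and 36.9 RPKM in the controls and 45.7 and 51.8 RPKM with TGF-β1. Its groups did not overlap, and at a log2 fold change of 0.51 (interval 0.23 to 0.78) it was the member nearest to the threshold among those not called (adjusted p = 0.0539, limma). It passed without control replicate 2 (adjusted p = 0.038) and by limma-voom. FDPS shares 18.6% of its exon bases with the antisense RUSC1-AS1, which had 4 to 7 reads per library.

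FDFT1 (ENSG00000079459.12, chromosome 8, 11795573 to 11839309), squalene synthase, the step that commits farnesyl pyrophosphate to sterols, measured 7.91 and 8.94 RPKM in the controls and 12.5 and 15.5 RPKM with TGF-β1. It rose 1.66-fold from 8.42 ± 0.73 to 14.0 ± 2.1 RPKM, with a log2 fold change of 0.69 and a standard error of 0.14 (adjusted p = 0.0441, limma). The groups did not overlap, but the call was lost whichever library was left out (adjusted p = 0.0989 without control replicate 1, 0.0594 without control replicate 2, 0.0513 for TGF-β1 replicate 1 and 0.163 for TGF-β1 replicate 2, limma) and with scaling by total recovered reads (adjusted p = 0.0649). SQLE, the squalene epoxidase, measured 3.32 and 4.37 RPKM in the controls and 4.33 and 6.39 RPKM with TGF-β1, which overlap (log2 0.42, interval -0.17 to 1.01). LSS, which closes the rings to lanosterol, measured 3.97 and 3.84 RPKM in the controls and 3.51 and 3.80 RPKM with TGF-β1 (log2 -0.09, interval -0.45 to 0.28).

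After lanosterol the values were mixed. CYP51A1, the lanosterol demethylase, had 8 and 5 control reads and 9 and 6 reads after TGF-β1 (0.287 to 0.615 RPKM) and did not pass the expression filter. In GENCODE 29, 79.4% of its exon bases are also exons of other genes on the same strand, and 78.6% of its 50-base words occur in other transcripts, so its low level is uncertain; the part of this overlap in it was not tested. TM7SF2, a sterol reductase, measured 1.34 and 2.47 RPKM in the controls and 2.01 and 1.46 RPKM with TGF-β1, on 15 to 39 reads, and its groups overlapped. MSMO1, which removes methyl groups from the sterol ring, measured 9.02 and 11.8 RPKM in the controls and 15.5 and 14.1 RPKM with TGF-β1 (log2 0.50, adjusted p = 0.117, limma), and it was called without control replicate 2 (adjusted p = 0.0429).

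NSDHL (ENSG00000147383.10, chromosome X, 152830967 to 152869729), the dehydrogenase that acts next on the same methyl groups, measured 17.2 and 18.6 RPKM in the controls and 25.0 and 26.4 RPKM with TGF-β1. It rose 1.44-fold from 17.9 ± 0.98 to 25.7 ± 1.0 RPKM, with a log2 fold change of 0.51 and a standard error of 0.08 (adjusted p = 0.0263, limma). Replicates were close, but it did not hold without control replicate 1 (adjusted p = 0.0642), TGF-β1 replicate 1 (0.0815) or TGF-β1 replicate 2 (0.127, limma) and with scaling by total recovered reads (adjusted p = 0.0542). HSD17B7, the ketoreductase of this demethylation, measured 1.18 and 1.42 RPKM in the controls and 0.496 and 0.850 RPKM with TGF-β1, on 16, 27, 8 and 16 reads. Its groups did not overlap, and the log2 fold change of -0.63 did not pass (interval -1.34 to 0.08, limma) but was called by limma-voom on recovered reads (log2 -1.17, adjusted p = 0.0250). HSD17B7 shares 14.2% of its 50-base words with other transcripts, chiefly the pseudogene HSD17B7P2, which had 3, 9, 3 and 3 reads, so its reads are uncertain.

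EBP, the sterol isomerase, was the most abundant sterol enzyme. It measured 78.2 and 82.9 RPKM in the controls and 90.3 and 103 RPKM with TGF-β1, without overlap (log2 0.26, interval 0.04 to 0.48, adjusted p = 0.140, limma). SC5D, a sterol desaturase, measured 0.980 and 1.32 RPKM in the controls and 0.843 and 0.897 RPKM with TGF-β1, on 18 to 34 reads (log2 -0.26, interval -0.90 to 0.37). DHCR7, which reduces a ring double bond late in the pathway, measured 21.7 and 21.4 RPKM in the controls and 26.8 and 32.6 RPKM with TGF-β1. The DHCR7 groups did not overlap, and the log2 fold change of 0.45 missed the threshold (interval 0.16 to 0.73, adjusted p = 0.0759, limma). It was 0.27 with scaling by total recovered reads (adjusted p = 0.168, limma) and passed by limma-voom at 0.28 (adjusted p = 0.0322).

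Among the 4 genes of sterol sensing, INSIG1 rose and the other 3 did not pass. INSIG1 (ENSG00000186480.12, chromosome 7, 155297776 to 155310235), itself a known SREBP target, measured 21.6 and 25.0 RPKM in the controls and 34.2 and 36.5 RPKM with TGF-β1. It rose 1.52-fold from 23.3 ± 2.4 to 35.4 ± 1.6 RPKM, with a log2 fold change of 0.59 and a standard error of 0.10 (adjusted p = 0.0271, limma). The call was lost without TGF-β1 replicate 1 (adjusted p = 0.0633) or TGF-β1 replicate 2 (0.101, limma). SREBF1, whose proteins favour the fatty acid arm, measured 37.6 and 37.3 RPKM in the controls and 41.9 and 38.3 RPKM with TGF-β1 (log2 0.10, interval -0.09 to 0.28). Its sign turned with scaling by total recovered reads (-0.08), with quantile normalisation (-0.07) and by limma-voom (-0.08), and the isoforms of SREBF1 are not separated in these values. SREBF2, which favours the sterol arm, measured 17.5 and 16.0 RPKM in the controls and 18.5 and 22.1 RPKM with TGF-β1 (log2 0.27, interval -0.03 to 0.56). SCAP measured 9.48 and 11.3 RPKM in the controls and 9.68 and 11.7 RPKM with TGF-β1, an overlap with a log2 fold change of 0.04 (interval -0.32 to 0.41). The cleavage and nuclear entry of SREBPs were not measured here.

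The 4 genes of sterol transport and efflux differed in direction. STARD4 (ENSG00000164211.12, chromosome 5, 111496033 to 111512590), a soluble carrier that moves cholesterol between membranes and a known SREBP target, measured 1.79 and 2.04 RPKM in the controls and 5.69 and 4.54 RPKM with TGF-β1, on 34, 54, 134 and 121 reads. It rose 2.67-fold from 1.92 ± 0.18 to 5.12 ± 0.82 RPKM, with a log2 fold change of 1.21 and a standard error of 0.18 (adjusted p = 0.0226, limma). It did not hold without control replicate 1 (adjusted p = 0.0552), TGF-β1 replicate 1 (0.106) or TGF-β1 replicate 2 (0.0597, limma). ABCA1 (ENSG00000165029.15, chromosome 9, 104781002 to 104928237), the LXR target that loads cholesterol onto apolipoproteins, measured 4.82 and 4.58 RPKM in the controls and 7.13 and 8.35 RPKM with TGF-β1. It rose 1.65-fold from 4.70 ± 0.17 to 7.74 ± 0.86 RPKM, with a log2 fold change of 0.66 and a standard error of 0.13 (adjusted p = 0.0453, limma).

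The call of ABCA1 was the least stable of the 9, since it held in 4 of 15 alternatives. It was lost whichever library was left out (adjusted p = 0.0852 without control replicate 1, 0.102 without control replicate 2, 0.0997 for TGF-β1 replicate 1 and 0.225 for TGF-β1 replicate 2, limma) and with scaling by total recovered reads (adjusted p = 0.0837). Its partner transporter ABCG1 had 0 reads in all 4 libraries, which allows up to 3 reads, or 0.104 to 0.145 RPKM, in each. NPC1, which exports cholesterol from lysosomes, measured 6.79 and 7.0 RPKM in the controls and 4.97 and 4.38 RPKM with TGF-β1. The NPC1 groups did not overlap, and the log2 fold change of -0.52 missed the threshold (interval -0.84 to -0.19, adjusted p = 0.0740, limma) but passed with scaling by total recovered reads (-0.68, adjusted p = 0.0425, limma). NPC1 shares 5.98% of its exon bases with RMC1 on the other strand.

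**Figure D4:**
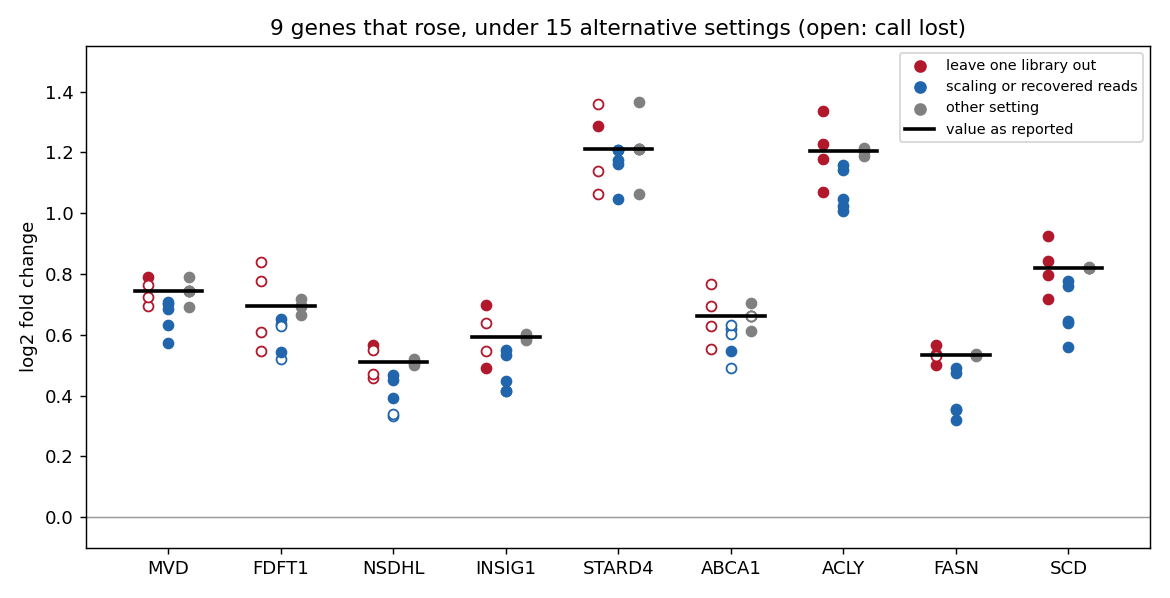
Log2 fold change of the 9 genes that rose under 15 alternative settings, with the reported value as a black line; red points leave out 1 library, blue points change the scaling or use recovered reads, grey points change another setting, and open points lost the call. All points lie above 0, which was fixed in advance for the red and grey points because the groups did not overlap in any of these genes. Settings with equal fold change hide one another, such as that without the variance trend. ACLY and SCD each lost the call in 1 setting and ABCA1 in 11.

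Other genes of these pathways, in 7 lists of 93 genes, gave 5 that rose and 3 that fell among 80 tested (6.25% higher, against 6.12% of all tested genes), with a median log2 fold change of -0.01. Of 10 further isoprenoid and sterol enzymes and 8 SREBP processing genes none was called by limma on the deposited values. At an unadjusted p below 0.05 there were 0 and 2, against 25.0% of all tested genes. Of the 8, TMEM97 was called lower with scaling by total recovered reads (log2 -0.49, adjusted p = 0.0331, limma). It was also called lower after quantile normalisation (log2 -0.51, adjusted p = 0.0248, limma). By limma-voom on recovered reads, 5 of the 80 genes were called higher and 18 lower, against 7.18% and 16.9% of all genes. With scaling by total recovered reads 1 was called higher (NPC2) and 6 lower, against 3.95% and 5.32% of all genes. Of 12 genes of sterol uptake, storage and transport, 1 rose: NPC2, the lysosomal partner of NPC1, measured 162 and 169 RPKM in the controls and 228 and 248 RPKM with TGF-β1 (log2 0.52, adjusted p = 0.0160, limma, and 0.0513 without TGF-β1 replicate 2). Its direction was opposite to that of NPC1. Of 9 LXR receptors and targets 2 rose.

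Of 16 further genes of fatty acid synthesis and elongation 1 fell, the elongase ELOVL7, from 2.42 and 2.91 RPKM in the controls to 0.868 and 1.14 RPKM with TGF-β1 (log2 -1.07, adjusted p = 0.0498, limma). That call was lost whichever library was left out (adjusted p = 0.0956 and 0.147 without control replicates 1 and 2, 0.17 and 0.118 without TGF-β1 replicates 1 and 2, limma). Of 13 genes of fatty acid activation, glycerolipid synthesis and storage 1 rose and 2 fell. PLIN2, the coat protein of lipid droplets, measured 31.1 and 31.4 RPKM in the controls and 17.0 and 16.5 RPKM with TGF-β1, and fell by 0.88 on the log2 scale (standard error 0.07, adjusted p = 0.00453, limma). It was called in 14 of 15 alternatives. The phosphatidate phosphatase LPIN2 measured 5.79 and 5.08 RPKM in the controls and 3.10 and 2.95 RPKM with TGF-β1 (log2 -0.75, adjusted p = 0.0420, limma), and PLIN3, another droplet protein, 47.4 and 49.0 RPKM against 62.2 and 58.8 RPKM (log2 0.32, adjusted p = 0.0462, limma). The calls of LPIN2 and PLIN3 were lost whichever library was left out (adjusted p = 0.0776 to 0.166 and 0.0823 to 0.195, limma).

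Of 12 genes of fatty acid oxidation 1 rose, the nuclear receptor PPARD, from 12.3 and 11.2 RPKM in the controls to 17.5 and 18.4 RPKM with TGF-β1 (log2 0.59, adjusted p = 0.0235, limma). This did not hold without control replicate 2 (adjusted p = 0.0533), TGF-β1 replicate 1 (0.0804) or TGF-β1 replicate 2 (0.116, limma). The median over these 12 genes was 0.11. The members and these lists cover different steps of the same pathways, and no test of the difference between them was made.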

How the data were processed

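RNA-seq of 4 HK-2 libraries, 2 per group by title, was analysed. RPKM values under versioned Ensembl identifiers were deposited by the authors in a single table. Per the submitters' processing notes, hg38, DESeq2, STAR 2.7.1a and bcl2fastq 2.20.0.422 were used, with no roles named; annotation release, counting tool and strand setting were not given in the sources used here. Symbols came from a table of gene names (25312 of 25609 matched) and coordinates and exon lengths from GENCODE 29 on hg38, where 4 members had another identifier version. RPKM times exon length fell on whole reads plus 0.5 for 100% of same-version genes (tolerance 0.01 read), and whole reads were recovered for 25498 genes (99.6%), with lengths fitted for 1292.

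Genes with a mean of at least 0.5 RPKM were tested with limma 3.58.1 (R 4.3.3) on log2(RPKM + 0.5), eBayes with a variance trend, 2 residual degrees of freedom, and Benjamini-Hochberg adjustment over all 16590 tested genes; "rose" and "fell" mean an adjusted p below 0.05. Fold changes on this scale understate those of low genes, and folds are ratios of group means. The procedure was run on simulated reads with a fixed spread and scaling by library totals. This checks that the procedure runs as intended and does not test the calls made here. The pseudocount, filter, trend, scaling, recovered reads (limma-voom), replicate block and left-out libraries were varied. Members, lists and motifs were chosen with earlier results of these data known. Members that rose and the 6 most abundant others were to be described in full, and called companion genes named, at most 4 per list; further members were added after their values were seen. Certain genes are not reported here.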

Additional observations from a re-analysis of the deposited data

How the results depend on the processing

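Under the 15 alternatives, 26 of the 32 tested members kept the sign of their fold change. HMGCS1, TM7SF2, SREBF1, SCAP, FADS2 and ELOVL6, none of them called in any setting, did not. Where the groups did not overlap (20 members higher and 6 lower), only scaling, quantile normalisation and limma-voom could turn the sign. The count of members called, 9, was 0 without the variance trend, 14 by limma-voom on recovered reads, and 2 to 8 with 1 library left out. The count over all genes, 1513, was 977 without the expression filter, 424 without the trend, 3972 by limma-voom, and 574 to 1138 with 1 library left out. The count of companion genes, 8, was 4 without the filter, 0 without the trend, 4 with quantile normalisation, 23 by limma-voom, and 1 to 4 with 1 library left out. By limma without the trend, 13 members (11 higher, 2 lower) had an unadjusted p below 0.05, a looser threshold than that of the counts called. The median of the sterol enzymes, 0.39, was 0.22 with scaling by total recovered reads, 0.23 by limma-voom, and 0.22 to 0.49 with 1 library left out. The median of the fatty acid genes, 0.26, was 0.43 among genes of at least 2 RPKM (7 members), 0.088 with scaling by total recovered reads, 0.11 by limma-voom, and 0.21 to 0.37 with 1 library left out. Higher genes were 67.1% of all calls as deposited, 42.6% with scaling by total recovered reads, 50.4% after quantile normalisation and 29.9% by limma-voom. The cause of these differences was not tested.

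Over all tested genes, same-numbered replicates did not deviate together (correlation 0.0261), so the numbers were not taken to pair the samples. Of the 32 tested members, 23 were higher in replicate 2 than in replicate 1 in the controls, and 23 were with TGF-β1. Over all tested genes these shares were 55.7% and 48.9%, and pairing among the members alone was not tested. With the replicate number as a block, 9 members were called, with FDPS gained and ABCA1 lost, 1344 genes in all and 6 companion genes. What depth limits was not tested; the tested member with the fewest reads was HSD17B7, with 8 to 27 per library.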
